A study of Mus musculus with 3 samples.

Results

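Germline and meiosis genes were read in mouse primary cerebral cultures, a tissue other than the germ line for which they are named. The set held every non-control probe whose deposited gene name begins with Tex, Tdrd, Spata or Piwil in the form of those families (Tex, Tdrd and Spata followed by a digit), is one of the synaptonemal complex genes Sycp1 to Sycp3 or begins with such a name, or is Dazl, Ddx4, Mael, Stra8, Spo11, Dmc1, Hormad1, Sohlh1 or Figla. It held 63 of 34797 gene names, read by 89 of the 55680 non-control probes, and the rule applied to the probes reads names only, although the set was proposed with earlier results of these data known. The cells were dissociated from cerebrum of embryonic day 18 embryos (C57BL6/J mice) and grew serum-free, in neurobasal medium plus B27. From day 10 in vitro they received for 24 h either 1 mM valproate, 100 µM lamotrigine or the solvent alone, and all 3 cultures contained 0.1% DMSO. Valproate is an antiepileptic drug that inhibits class I histone deacetylases, and lamotrigine is an antiepileptic drug that blocks sodium channels. The study asked which neuronal genes respond to class I histone deacetylase inhibition. There were 3 arrays, 1 per treatment, so no difference between treatments has a replicate check and no test between them was possible.

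Germ cells divide by meiosis, in which homologous chromosomes pair along the synaptonemal complex and exchange DNA at programmed double-strand breaks. They also guard their genome with piRNAs, small RNAs that are bound by the Piwi proteins and guide the silencing of transposons. In somatic cells many of these genes are kept silent by repressive chromatin and DNA methylation, and histone deacetylases are part of several such repressor complexes. The names Tex (testis expressed), Spata (spermatogenesis associated) and Tdrd (tudor domain) record where a gene was first found or a protein domain, and several genes so named are active in most tissues.

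Each level is a scaled signal, where 100 stands for the 75th percentile of an array's non-control spots. That percentile was an intensity of 478 with valproate, 372 with DMSO and 388 with lamotrigine. A detected probe is one for which the scanner software marked most spots as well above background, array by array, and a silent probe was detected on none of the 3 arrays. The lowest signal of any detected probe, the detection floor, was a scaled signal of 3.88 with valproate, 5.29 with DMSO and 4.63 with lamotrigine. Of 308 negative control spots, 0, 2 and 0 were marked as well above background on the valproate, DMSO and lamotrigine arrays, and no spot was saturated (0 on each array). All 8 neuron markers and all 7 astrocyte markers read here were detected on each array, so the labelled tissue carried its own markers. Their levels differed between the arrays. With valproate 6 of 7 astrocyte genes were below DMSO (2 at least 2-fold, median log2 difference -0.53). Their summed levels were 16343, 34986 and 35071 with valproate, DMSO and lamotrigine. Most of the gap between valproate and DMSO was Aldoc, at 10073 against 25995. Of the neuron genes, 6 of 8 were below DMSO (median -0.36), with sums of 29966, 40278 and 35414. Of all probes detected with valproate and DMSO, 62.2% were below DMSO and 1.27% at least 2-fold lower (median -0.10). The part of either marker set in the values below was not tested. In such bulk RNA, fewer cells that express a gene and less RNA per cell cannot be told apart.

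By the rule for detection given above, the main rule here, most of the set was silent. On the valproate array 27 of 89 probes were detected, 30.3% with an exact 95% binomial interval of 21.0% to 41.0%, against 51.7% of all non-control probes and 70.3% of the 26536 probes with a curated mRNA (NM) accession. With DMSO 23 of 89 probes were detected, 25.8% (interval 17.1% to 36.2%), against 48.5% of all and 67.3% of NM probes. With lamotrigine 26 of 89 probes were detected, 29.2% (interval 20.1% to 39.8%), against 50.6% of all and 68.8% of NM probes. The intervals cover counting over probes only, and probes of the same gene are not independent. On each array the share of detected germline and meiosis probes lay below both background shares, and the interval did not reach either. By gene name, 22, 18 and 19 of 63 had a detected probe with valproate, DMSO and lamotrigine. Over the 3 arrays, 60 probes were detected on none, 4 on 1, 3 on 2 and 22 on all 3. Under less strict rules most probes were detected. A less strict flag of the scanner software gave 48, 49 and 57 with valproate, DMSO and lamotrigine. Counting signals above the 99th percentile of the negative control spots gave 48, 49 and 51. No background share is given for these rules.

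**Figure D1:**
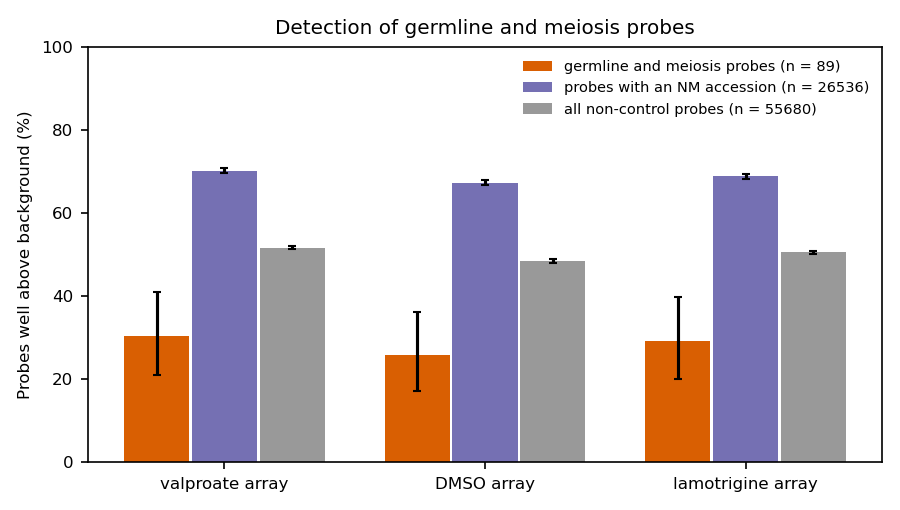
Share of probes well above background on each array, in percent, for the 89 germline and meiosis probes, the 26536 probes with an NM accession and all 55680 non-control probes; bars are shares and whiskers exact 95% binomial intervals over probes. The germline and meiosis share is 30.3% with valproate, 25.8% with DMSO and 29.2% with lamotrigine, below the other shares on each array.

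The promoters of the silent genes were read because these genes were silent together, and 5 stretches are shown for the motif counted in them. The RefSeq table (GRCm38.p6) gave a promoter for 51 of the 63 gene names, and the 250 bases upstream of each start were searched for CACGTG, the palindromic E-box bound by dimers of the protein MAX. As background, MAX pairs with MGA in a Polycomb complex known to repress germline genes in somatic cells. CACGTG lay upstream of 10 of 32 genes that were silent on all arrays, of 0 of 15 genes with a probe detected on all 3 arrays and of 1 of 4 genes detected on some arrays, which was Ddx4. By window the share was 31.6% for silent genes, 0% for detected genes, 25% for those detected on some arrays and 6.02% for all 32851 promoter windows. The 10 silent genes were Piwil1, Hormad1, Sycp3, Sycp1, Tex12, Mael, Tdrd1, Tdrd9, Sohlh1 and Spata16. Of these, Hormad1, Sycp3, Mael, Tdrd9 and Sohlh1 had a probe detected on some or all arrays under the less strict rules. Another annotated gene overlaps the Tex12 window. Most of the detected genes belong to the broadly expressed genes listed further on, so the contrast is also one between kinds of gene. Whether the motif bears on the silence was not tested. The E2F core GCGGGA, searched on both strands, lay upstream of 9 of 32 silent genes, 7 of 15 detected genes and 3 of 4 genes detected on some arrays. By window that was 26.3%, 38.1% and 75%, against 16.9% of all windows. The median ratio of observed to expected CpG was 0.557 in silent genes, 0.727 in detected genes, 1.00 in those detected on some arrays and 0.374 in all windows. A match of letters is a description of the window and no evidence that a factor binds there. The 5 examples run 5′ to 3′ on the strand of the gene, and capitals mark CACGTG. They lie at chr13:112652311-112652560 (minus strand) for Ddx4, chr5:128735996-128736245 (plus) for Piwil1, chr3:95559427-95559676 (plus) for Hormad1, chr10:88459337-88459586 (plus) for Sycp3 and chr2:25847249-25847498 (minus) for Sohlh1, all on GRCm38.p6.
Ddx4: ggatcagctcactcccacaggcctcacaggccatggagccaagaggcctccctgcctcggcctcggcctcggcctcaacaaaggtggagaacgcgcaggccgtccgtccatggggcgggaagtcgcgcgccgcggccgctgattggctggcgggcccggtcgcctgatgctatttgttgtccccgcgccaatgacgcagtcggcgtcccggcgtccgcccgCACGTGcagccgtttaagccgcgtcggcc
Piwil1: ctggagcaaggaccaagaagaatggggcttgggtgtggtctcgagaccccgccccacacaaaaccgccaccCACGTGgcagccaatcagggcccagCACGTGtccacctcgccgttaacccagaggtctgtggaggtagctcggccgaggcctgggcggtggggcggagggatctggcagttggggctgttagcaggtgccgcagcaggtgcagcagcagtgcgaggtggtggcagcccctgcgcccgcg
Hormad1: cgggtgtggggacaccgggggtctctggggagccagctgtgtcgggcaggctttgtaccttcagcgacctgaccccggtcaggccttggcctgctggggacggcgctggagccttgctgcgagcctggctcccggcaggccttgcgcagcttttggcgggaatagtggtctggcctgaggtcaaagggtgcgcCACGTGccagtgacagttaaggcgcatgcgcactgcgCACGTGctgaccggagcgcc
Sycp3: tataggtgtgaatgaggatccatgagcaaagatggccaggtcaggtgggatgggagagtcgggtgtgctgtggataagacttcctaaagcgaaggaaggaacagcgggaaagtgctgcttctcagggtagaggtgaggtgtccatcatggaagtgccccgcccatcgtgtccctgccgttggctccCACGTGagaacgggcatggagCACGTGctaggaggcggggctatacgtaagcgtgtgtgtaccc
Sohlh1: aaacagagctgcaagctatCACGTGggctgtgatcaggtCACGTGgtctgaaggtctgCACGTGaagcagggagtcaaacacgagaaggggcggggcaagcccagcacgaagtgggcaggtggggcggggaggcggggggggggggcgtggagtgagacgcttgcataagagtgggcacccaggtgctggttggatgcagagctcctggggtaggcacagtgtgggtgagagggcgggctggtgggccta
Piwil1, Hormad1 and Sycp3 each carry 2 matches, Sohlh1 carries 3 and Ddx4 carries 1.

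In the list of identity regulators and bridge genes, which also held Tex13, Tex19.1 and Tex19.2, 0 of 7 genes were detected on any array by the main rule. Under the less strict rules Tex19.2 was detected on all arrays, Dazl, Sohlh1 and Tex14 on some, and Figla, Tex13 and Tex19.1 on none. Dazl, an RNA-binding protein that germ cells need for their development, read 3.80 with valproate, 1.23 with DMSO and 3.72 with lamotrigine. Sohlh1, a transcription factor of early germ cell differentiation, read 0.81, 2.03 and 2.71 in the same order. Figla, an oocyte transcription factor, read 0.85, 1.17 and 1.05. All of these lay below the detection floor of their array. Tex14, a component of the bridges that join germ cells, read 1.83, 1.41 and 1.07, and Tex13 read 0.81, 1.12 and 0.98. Tex19.1, which limits retrotransposons in germ cells, read 0.78, 1.07 and 0.94, and its paralog Tex19.2 read 0.94, 3.29 and 1.90. None of the 7 passed the floor with either drug.

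Of the 10 genes of meiotic recombination and synapsis, 9 were silent by the main rule. Under the less strict rules Spo11 and the second probes of Sycp3 and Tex11 were detected on all arrays. Dmc1, Hormad1 and Sycp2 had probes detected on some arrays, and Stra8, Sycp1 and Tex12 on none. Stra8, which responds to retinoic acid at meiotic entry, read 0.78 with valproate, 1.07 with DMSO and 0.94 with lamotrigine. Spo11, the enzyme that makes the meiotic double-strand breaks, read 3.48, 1.70 and 4.11. Its valproate and lamotrigine values were above its DMSO value, and all 3 were below the floors. The 3 probes of Dmc1, the meiotic recombinase, read 1.33, 1.07 and 0.82 with valproate, 1.10, 2.75 and 1.12 with DMSO and 0.96, 1.27 and 2.43 with lamotrigine. No array was highest for all of the Dmc1 probes. Hormad1, a protein of unsynapsed chromosome axes, read 0.82 and 0.87 with valproate, 1.53 and 1.21 with DMSO and 1.64 and 1.06 with lamotrigine on its 2 probes. The axial element gene Sycp3 read 0.79 and 2.12, 1.08 and 1.89, and 0.96 and 2.50 on its 2 probes in that order of arrays. Sycp2, the other axial element gene, read 1.94, 1.23 and 2.24. Sycp1, which forms the transverse filaments between the axes, read 1.01, 1.41 and 1.23. Tex12, a central element protein, had 1 probe printed 10 times per array and read 0.91, 1.31 and 1.15, with 0 of its 10 spots well above background on each array. Tex11, an X-linked gene of meiotic crossover formation, read 1.06 on both probes with valproate, 1.49 and 2.24 with DMSO and 1.29 and 3.22 with lamotrigine. The 7 probes on the X chromosome, for Tex11, Tex13, Tex13a, Tex16 and Tex28, had 0 detections.

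Of the 11 piRNA pathway and germ granule genes, 8 were silent by the main rule, the Piwi genes among them. Under the less strict rules Piwil2, Piwil4, Mael and Tdrd9 were detected on some or all arrays. Piwil1, Tdrd1, Tdrd6 and Tdrd12 stayed undetected. Piwil1 read 0.81 with valproate, 1.10 with DMSO and 0.98 with lamotrigine, and Piwil2 read 0.77, 1.44 and 1.00. Piwil4, the nuclear Piwi protein, read 1.27, 3.79 and 1.37, the DMSO value being the highest. Mael, which acts in transposon silencing, read 0.77, 1.45 and 0.97. The tudor genes Tdrd1 (0.98, 1.36 and 1.20), Tdrd6 (1.03, 1.44 and 1.24), Tdrd9 (3.25, 1.47 and 2.12) and Tdrd12 (0.98, 1.37 and 1.21) were silent too. Tdrd7 was detected on all arrays, and Ddx4 and Tdrd5 with valproate alone.

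The silent probes were near the limit of what the arrays resolve. Of the 60 silent probes, 40 with valproate, 39 with DMSO and 31 with lamotrigine held the small value that the scanner software sets in place of a signal it cannot tell from background. Values so set have no order, and they differ between arrays through the value that the software sets on each array and through the scaling. The lower scaled values of many silent genes with valproate are therefore not read as a difference in RNA. The highest silent signals were 4.19 with valproate (Spata2l, second probe), 5.49 with DMSO (Tex101) and 4.53 with lamotrigine (Tex2, second probe). Median background-subtracted intensities of the 60 probes were 1.89, 2.46 and 3.88, and 19, 20 and 22 probes lay above the 99th percentile of the negative control spots, an intensity of 4.28, 4.69 and 6.17. Some silent probes therefore had signal above the negative controls on each array, in similar number with and without valproate. The negative control spots carry 1 sequence, so they do not show how much background varies between sequences. The median GC content was 41.7% in silent probes and 38.3% in probes detected on all arrays.

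**Figure D2:**
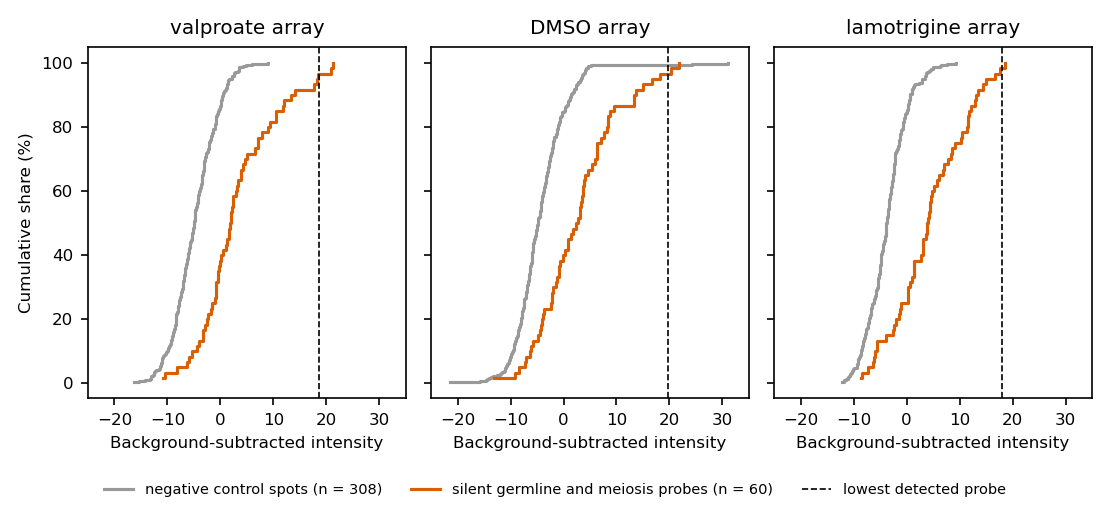
Cumulative share, in percent, of background-subtracted intensity for the 60 silent germline and meiosis probes and the 308 negative control spots on each array. The dashed line marks the lowest processed intensity of any detected probe on that array. Processed intensity is also detrended, so the line only approximates the scale of the x axis. The silent probes lie to the right of the control spots on all 3 arrays, with medians of 1.89, 2.46 and 3.88, and most stay left of the line.

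Few silent probes came on with valproate. Of the 63 probes detected neither with DMSO nor with lamotrigine, 3 were detected with valproate, 4.76% (exact interval 0.993% to 13.3%), against 4.79% of all non-control probes and 7% of NM probes. The members' share was at the background. None of the 3 was at least 2-fold above the DMSO bound (0 of 63, background 0.407% of all and 0.942% of NM probes). In the same count for the other arrays, 0 of 60 probes were detected with DMSO alone, against 0.825% of all and 1.05% of NM probes, and none past 2-fold, against 0.166% and 0.211%. With lamotrigine alone 1 of 61 was detected, against 2.6% and 2.62%, and none past 2-fold, against 0.185% and 0.169%. Where a probe was undetected on an array, that side was set to the detection floor, or to the probe's own signal if higher. The fold is a lower bound where the floor was used and a plain ratio where the own signal was.

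The probes that came on with valproate were for Ddx4, Spata5l1 and Tdrd5. Each probe is 60 bases long, and its central 30 bases (16 to 45) are shown 5′ to 3′ because the calls rest on these sequences. In mm9, the build of the array annotation, the probes lie at chr13:113388616-113388675 (minus strand) for Ddx4, chr2:122458324-122458383 (plus) for Spata5l1 and chr1:158197155-158197214 (minus) for Tdrd5, and the exon they fall in was not read here. The Tex15 probe described further on lies at chr8:34692726-34692785 (plus).
Ddx4: atgtaatgaaaatggttcagtttgcaatgt
Spata5l1: gatttaggtctcctggcagaaatgacggtt
Tdrd5: ccaagaccggaaatgtaaatgagctaaata
Tex15: cagaattcaaaagtcctgactcagaaagtt

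Ddx4, the germ cell RNA helicase also called Vasa, had a scaled signal of 8.60 with valproate, 2.96 with DMSO and 4.83 with lamotrigine. The intensities behind these, with the scanner's own error, were 41.1 ± 6.3, 11.0 ± 5.2 and 18.7 ± 5.0. Before scaling, the valproate value was the highest and did not overlap the others within that error, which leaves out differences between cultures. The valproate array was brighter as a whole, with a 75th percentile of 478 against 372 and 388, so gaps before scaling are wider than after it. With valproate Ddx4 was at least 1.62-fold above DMSO (log2 bound 0.70). The bound ran from 0.00030 with normexp background correction to 1.05 with spike-in scaling. The normexp setting adds an offset of 50 to each intensity, which by construction shrinks differences between signals as dim as these. Under a less strict detection flag, or with detection above the 99th percentile of the negative controls, Ddx4 was detected on all 3 arrays and the log2 difference was 1.54. Under those rules its probe was therefore not silent with DMSO.

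Spata5l1, an AAA-type ATPase gene, read 6.19 with valproate, 3.99 with DMSO and 4.08 with lamotrigine. The intensities before scaling were 29.6 ± 5.6, 14.9 ± 5.4 and 15.8 ± 5.0. As the valproate array was brighter as a whole, the gap between these intensities is wider than that between the scaled values. Its log2 bound against DMSO was 0.23. Tdrd5, a tudor protein of spermatid germ granules, read 4.09, 3.41 and 1.51 on the probe shown, and its valproate value lay below the DMSO floor, so no fold is given. Its 2 other probes were silent, at 0.78 and 0.89 with valproate, 1.07 and 1.24 with DMSO and 0.94 and 1.10 with lamotrigine. Under both other detection rules the probes shown for Ddx4, Spata5l1 and Tdrd5 were detected on all arrays, and 1 other probe, for Dmc1, was detected with valproate alone. Which probes counted as switched on thus differed with the rule for detection.

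A further pair of probes was detected with both drugs and not with DMSO, which made 5 of 66 probes on with valproate and off with DMSO, 7.58%, against 7.87% of all and 11.2% of NM probes. The second probe of Spata6, a gene of the sperm connecting piece, read 13.1 with valproate, 5.47 with DMSO and 9.17 with lamotrigine. It was 2.40-fold above DMSO with valproate (log2 difference 1.26) and 1.68-fold with lamotrigine. The DMSO side was the probe's own undetected signal, from an intensity of 20.4 ± 5.4, so these folds are plain ratios and no lower bounds. With normexp correction, whose offset shrinks such differences, the valproate value was 0.11. Spata17 read 4.21 with valproate, 5.03 with DMSO and 10.8 with lamotrigine on the one of its 3 probes that was detected. It was at least 2.05-fold above DMSO with lamotrigine, and no fold is given for valproate against DMSO. With lamotrigine, 3 of 66 probes were on and off with DMSO (Spata6, Spata17 and a Spata21 probe), against 5.74% of all and 7% of NM probes. That Spata21 probe, the only one detected with lamotrigine alone, read 3.48, 3.86 and 5.21, and its DMSO floor lay above the lamotrigine value. In the opposite direction, 1 of 62 probes was detected with DMSO and not with valproate (background 1.72% and 2.36%), a Spata3 probe at 3.90, 8.67 and 8.55, and none was detected with DMSO and not with lamotrigine (0 of 63, background 1.82% and 2.45%).

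**Figure D3:**
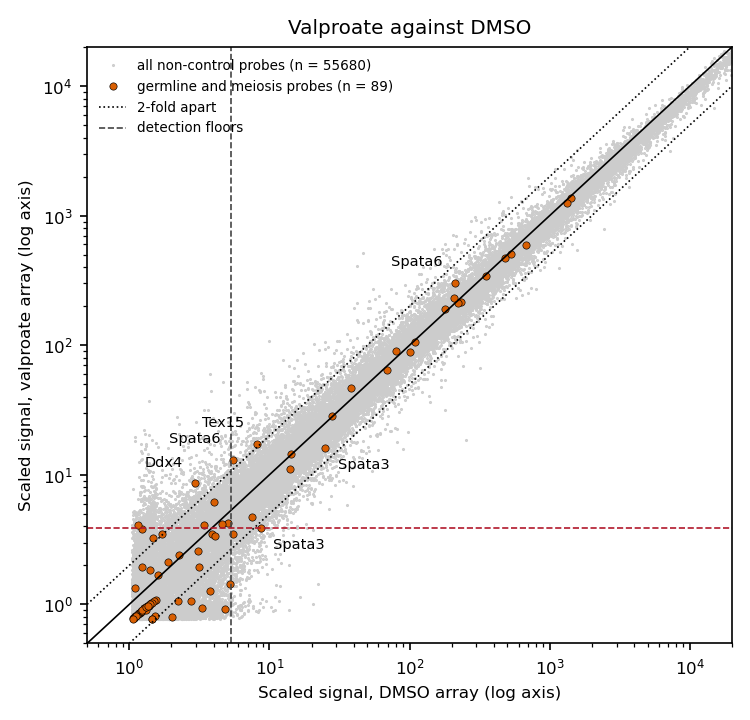
Scaled signal on the DMSO array (x) against the valproate array (y), both on log axes, for all 55680 non-control probes and the 89 germline and meiosis probes; dotted lines mark 2-fold differences and dashed lines the detection floors of 5.29 and 3.88. Most germline and meiosis probes lie left of the vertical floor, and of the 7 above the upper dotted line Tex15, at 17.3 against 8.12, was detected on both arrays. The others, Ddx4 and a Spata6 probe among them, were not detected with DMSO, so their distance from the line is no measured fold.

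Among the 22 probes detected on both the valproate and the DMSO array, 1 was at least 2-fold higher with valproate (background 1.63% of all and 1.88% of NM probes) and 0 were at least 2-fold lower (background 1.27% and 1.08%). The median log2 difference was -0.05 with a range of -0.65 to 1.09, against a median of -0.10 over all 26538 such probes. With spike-in scaling, which adds 0.35 to each log2 difference of valproate from DMSO, the median was 0.30 and lower values that differed by less than this shift became higher ones. In sign, 8 were above 0 and 14 below (36.4% and 63.6%), close to the 37.8% and 62.2% of all such probes, and 19 of the 22 lay within 1.5-fold of DMSO. Besides the scanner's error per spot, the only error in these data is the spread between spots of 1 sequence. It came to a median SD of log2 signal of 0.174 to 0.187 below a scaled signal of 25 and of 0.0447 to 0.0473 above 400, over the detected ones of 399 probes printed 10 times per array. Beyond 2 such SDs of the difference from DMSO lay 6 of 22 probes with valproate, against 50% of all and 52.3% of NM probes detected on all arrays. With lamotrigine it was 3 of 22, against 27.9% and 28.4%. This spread leaves out cultures, extraction and labelling.

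Tex15, a gene needed for the repair of meiotic double-strand breaks and for piRNA-directed DNA methylation, was the probe at least 2-fold higher with valproate. It read 17.3 with valproate, 8.12 with DMSO and 7.94 with lamotrigine, from intensities before scaling of 82.9 ± 9.4, 30.2 ± 5.7 and 30.8 ± 5.5. Before scaling, which narrows the gap, the valproate value stood apart from the other 2, which lay within each other's error. The log2 difference was 1.09 against DMSO and 1.13 against lamotrigine. With normexp correction, whose offset by construction shrinks differences between such dim signals, it was 0.27. With spike-in scaling it was 1.44. The other Tex15 probe, at chr8:34683265-34683324 in mm9, was silent with 0.99, 1.38 and 1.22, so the rise was read by 1 of 2 probes. Tex15 was already detected with DMSO and was not switched on. Proliferation markers were also higher on the valproate array, 6 of 6 above DMSO with a median log2 difference of 0.53, and none was undetected. Their summed levels were 4571, 3581 and 3648 with valproate, DMSO and lamotrigine. Of all probes detected with valproate and DMSO, 37.8% were above DMSO. The part of these markers in the Tex15 result was not tested.

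Spata6 was the next highest on its first probe, at 304 with valproate, 210 with DMSO and 223 with lamotrigine, a log2 difference of 0.53. Both Spata6 probes were highest with valproate. Spata13, a guanine nucleotide exchange factor gene, read 46.4, 38.4 and 45.4, higher with both drugs by 0.27 and 0.24. Tex9 (90.3, 80.0 and 77.3) and Tex10 (231, 208 and 197) differed from DMSO by 0.18 and 0.15 on the log2 scale with valproate. Lower values with valproate were read for Spata21 (4.75, 7.48 and 8.22) at -0.65 and for the brighter Spata3 probe (16.2, 25.05 and 23.05) at -0.63. Both Spata3 probes were lowest with valproate, the dimmer one 2.22-fold below DMSO on its own undetected valproate signal. Spata24 (11.0, 13.9 and 13.9) differed by -0.34, within 2 technical SDs. Motile cilium markers were lower with valproate as well, with 18 of 21 genes detected on both arrays below DMSO and 7 at least 2-fold lower. Of all probes detected on both arrays, 62.2% were below DMSO and 1.27% at least 2-fold lower. The median log2 difference of the markers was -0.55, and 2 of 25 were detected on no array. Their summed levels were 3703, 5008 and 5647, of which the Mcidas probe made up 1753, 1608 and 1730. The part of these markers in the Spata3, Spata21 and Spata17 values was not tested.

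**Figure D4:**
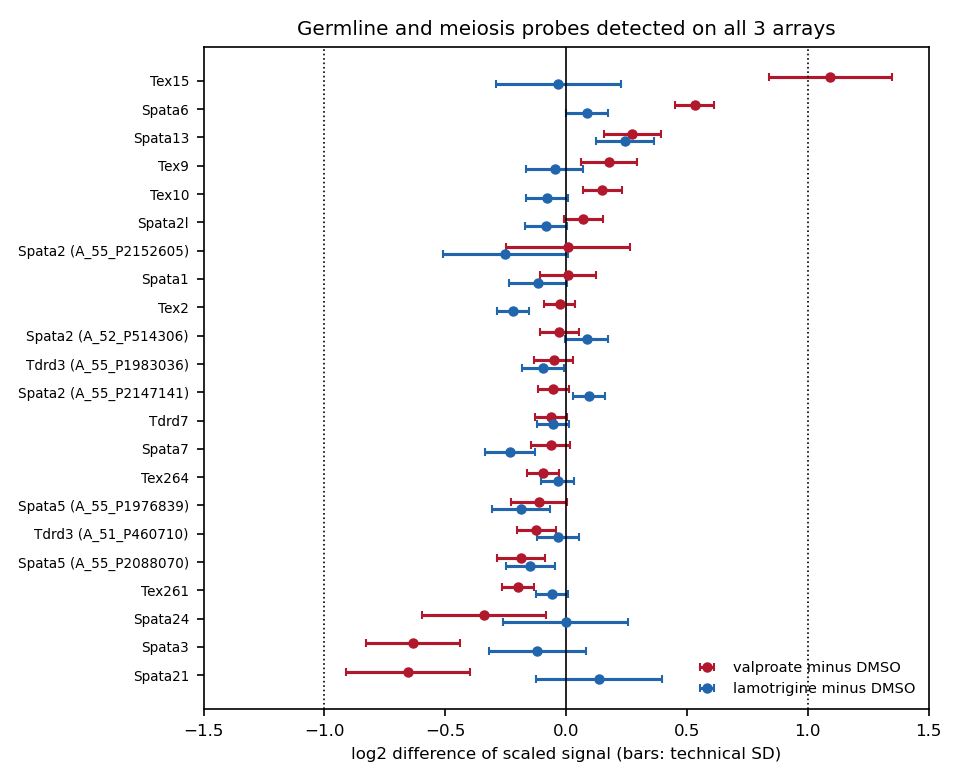
Log2 difference of scaled signal from DMSO for the 22 germline and meiosis probes detected on all 3 arrays, valproate in red and lamotrigine in blue; whiskers are the technical SD of spots and dotted lines mark 2-fold. Tex15 at 1.09 with valproate is the one point past a dotted line, and the lamotrigine points lie between -0.25 and 0.24.

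The set also held 14 genes that bear germline names and are known from many tissues, in a list drawn up with earlier results of these data known. All 14 had a detected probe with valproate and 13 on the DMSO and lamotrigine arrays, Spata5l1 being the exception. Spata2, which links the deubiquitinase CYLD to the linear ubiquitin ligase, read 1371 with valproate, 1422 with DMSO and 1517 with lamotrigine on its brightest probe. Its other probes read 344, 350 and 372, and 14.4, 14.3 and 12.01. The 3 Spata2 probes differed from DMSO by -0.05, -0.03 and 0.01 on the log2 scale with valproate.

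Tex264, a receptor for autophagy of the endoplasmic reticulum, read 1245 with valproate, 1331 with DMSO and 1299 with lamotrigine, a difference of -0.10. Tex261 read 595, 683 and 656, a difference of -0.20. Tdrd7, a tudor protein of RNA granules also known from the lens, read 507, 529 and 510, and Tex2, a lipid transfer protein gene, read 473, 482 and 414 on its detected probe. Of these 4 genes, Tex261 alone differed from DMSO by more than 2 technical SDs with valproate. Tdrd3, which binds methylated arginine and partners the topoisomerase Top3b, read 213, 221 and 207 on 1 probe and 214, 233 and 228 on the other. Spata2l read 189, 180 and 170, and Spata7, a gene of retinal degeneration, 105, 110 and 93.7. The 2 probes of Spata5, an AAA-type ATPase gene, read 89.0, 101 and 91.5, and 64.3, 69.6 and 61.1, with differences of -0.19 and -0.11. Spata1 read 28.2, 28.1 and 25.9. Without the 14 broadly expressed genes, 68 probes for 49 names remained, and 8, 6 and 8 of them were detected with valproate, DMSO and lamotrigine.

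**Figure D5:**
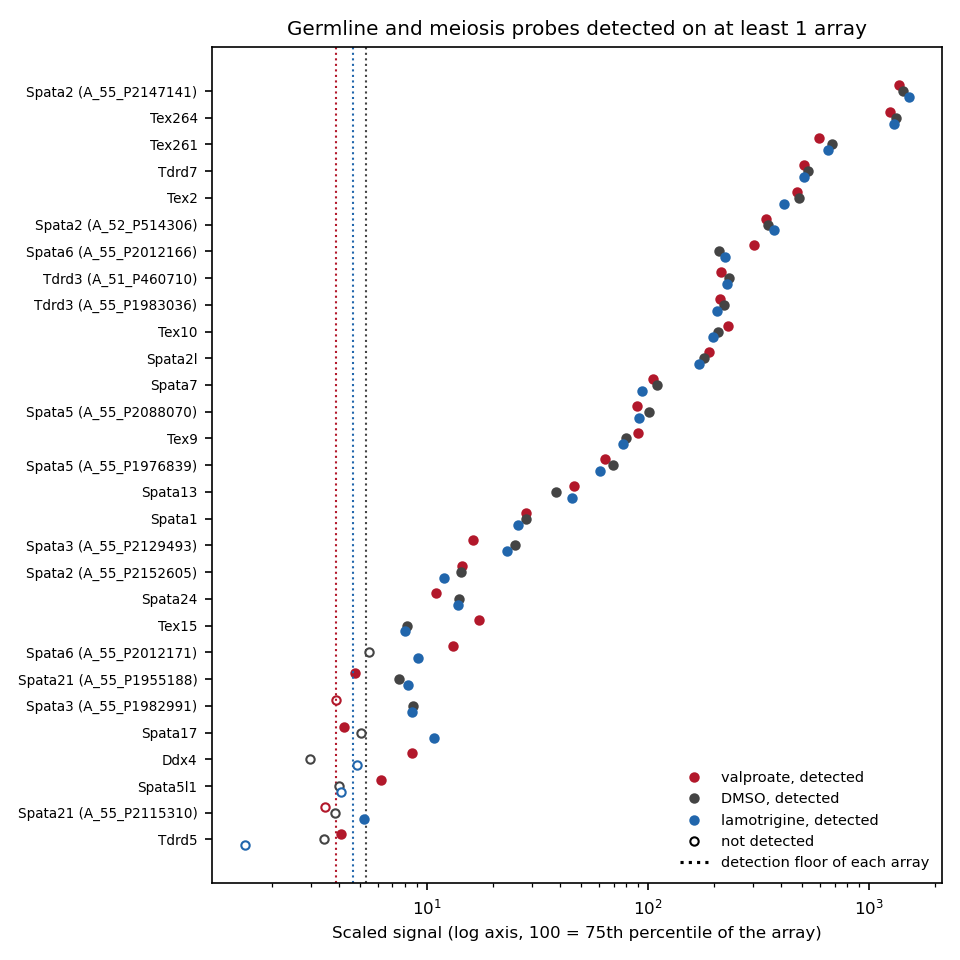
Scaled signal, on a log axis, of the 29 germline and meiosis probes detected on at least 1 array, with valproate in red, DMSO in grey and lamotrigine in blue; open circles are values not detected and dotted lines the detection floors of 3.88, 5.29 and 4.63. The probes span 1517 for Spata2 to 1.51 for Tdrd5, and the open circles are all among the dimmest 8 probes.

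Lamotrigine served as a second drug that is not a histone deacetylase inhibitor. Of 23 probes detected with lamotrigine and DMSO, 0 were at least 2-fold higher (background 0.143% of all and 0.0906% of NM probes) and 0 lower (background 0.0717% and 0.051%), with a median log2 difference of -0.05 (0.15 with spike-in scaling) and a range of -0.25 to 0.24. The highest were Spata13 at 0.24 and Spata21 at 0.14, and the lowest were the dimmest Spata2 probe at -0.25, Spata7 at -0.23 and Tex2 at -0.22. The SD over probes was 0.12 with lamotrigine and 0.36 with valproate. Over all non-control probes so detected it was 0.24 and 0.40, so the values with valproate spread more widely there too. Between valproate and lamotrigine, 24 probes were detected on both arrays, 1 was at least 2-fold higher with valproate (Tex15, background 1.59% of all and 1.83% of NM probes) and 1 lower (Spata17 at -1.36, background 1.49% and 1.43%). The comparisons with DMSO share that array.

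Several genes were read by more than 1 probe, and the probes did not always give the same call. Of 22 gene names with several probes, 6 had both detected and silent probes, and these were Spata1, Spata17, Spata2l, Tdrd5, Tex15 and Tex2. The widest gap was for Tex2, at 473 with valproate on 1 probe and 4.11 on the other. By gene name, 41 of 63 had no detected probe on any array, 18 had a probe detected on every array, and the other 4 were Ddx4, Spata5l1, Tdrd5 and Spata17. The silent genes not yet given values, which are Spata4, Spata9, Spata16, Spata18, Spata19, Spata20, Spata22, Sycp2l, the pseudogene Sycp1-ps1, Tex13a, Tex16, Tex18, Tex21, Tex22, Tex24, Tex28 and Tex101, read between 0.83 and 5.49 on all arrays. Among them Spata22, a partner in meiotic recombination, read 0.84, 1.15 and 1.02, and Spata16, a sperm head gene, 0.98, 1.35 and 1.18.

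A second list held 52 other germline genes outside the name rule, and was drawn up with earlier results of these data known. With valproate, DMSO and lamotrigine, 23, 22 and 23 of them had a detected probe. By probe that was 25, 24 and 25 of 63, against 51.7%, 48.5% and 50.6% of all non-control probes. The shares of NM probes were 70.3%, 67.3% and 68.8%. Of these genes, 28 were detected on no array, and 0 were detected with valproate alone. The background share of probes detected with valproate alone was 4.79%, and a list this small cannot tell 0 from that share. Among the 23 probes of the list detected with valproate and DMSO, 3 were at least 2-fold higher with valproate and 1 lower. The backgrounds were 1.63% and 1.27% of all and 1.88% and 1.08% of NM probes. As the list was chosen with results known, these counts are not read as an enrichment. The list's median over 21 genes was -0.08. Syce2, a central element gene of the synaptonemal complex, read 499 with valproate, 182 with DMSO and 163 with lamotrigine, a log2 difference of 1.46. Rec8, the meiotic cohesin subunit, read 661, 247 and 323, a difference of 1.42. Ybx2, a germ cell RNA-binding protein gene, read 232, 102 and 121, a difference of 1.18, and its other probe differed by 0.76. All 3 genes were already detected with DMSO.

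Gdf9, an oocyte growth factor gene, was lower with valproate, at 36.9 against 75.2 with DMSO and 68.4 with lamotrigine, a difference of -1.03. The other bright genes of the list were Ddx25 (874, 922 and 757), a testis RNA helicase gene, Hspa2 (697, 488 and 548) and Nanos3 (156, 240 and 236), a gene of primordial germ cells. Prdm9, the histone methyltransferase that places recombination hotspots, read 6.31, 4.46 and 7.38 on 1 probe and was not detected with DMSO. Sohlh2 (4.92, 4.87 and 6.78) had the same calls, and Zp1, a coat protein gene of the oocyte, was detected with DMSO alone at 3.68, 6.79 and 4.29. No gene of this list thus went from silent to detected with valproate only, a count not told apart from the background share.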

How the data were processed

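Total RNA of 3 cultures, 1 per treatment, was labelled with the single dye Cy3 and hybridised to 1 array each, per the labels' protocols. The deposited scanner files hold spot intensity from Feature Extraction 10.7.1.1, with probes annotated on mm9, per the file headers. Their processed intensity is background-subtracted and detrended within an array, per the file headers. A table of processed intensity from the authors was used as an alternative. It is named as quantile normalized, and no further detail of how it was made is given in the sources used here. Its 3 presence-call columns were not used.

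Levels were computed as log2 of the processed intensity minus the log2 75th percentile of the non-control spots, and outlier spots were dropped, which left 1 probe without a value. Analyses used R 4.3.3 with limma 3.58.1 (for normexp with an offset of 50 and quantile normalization), and python 3.11.15. With 1 array per treatment, nothing was tested. Precision is limited by the number of arrays. The computation of levels, folds and bounds was checked on simulated data, with changes planted in bright probes only. That check did not cover the scanner's detection flag or signals near the detection floor. Of the 89 probes, 78 were matched to RefSeq by accession, 10 by symbol and 1 not at all.

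The genes, the lists and the rule for named genes were chosen with earlier results of these data known. The rule took all genes of the 3 role lists, all probes that differ in detection between valproate and DMSO, the 8 highest and 8 lowest log2 differences between valproate and DMSO, the 4 at each end for lamotrigine, all probes at least 2-fold apart, the 8 of highest signal, and genes whose probes disagree. From the list of other germline genes it took those detected on 1 or 2 arrays, those at least 2-fold apart and the 5 of highest signal. Other names were added after their values were seen. Alternatives were other scalings, background corrections, detection rules, fold thresholds, control arrays and sets of probes.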

Additional observations from a re-analysis of the deposited data

How the results depend on the processing

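Of the summary values recomputed under the alternatives, 192 stayed within the set margin of the reported value and 52 moved. No value past the 2-fold threshold changed sign, but each of the 3 medians, reported as -0.05, -0.05 and 0.04, did so under at least 1 setting below. No paired analysis was possible because each treatment has 1 array. The presence calls of the deposited table were not run as an alternative, because their columns share 1 name and could not be matched to arrays. Signals near background limit every statement on silent genes, and 1 array per treatment limits every fold. The cause of the shifts was not tested beyond what each setting changes by construction.

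Spike-in scaling (6 of 10 spike-in probes) raised the median of all probes by 0.35 for valproate against DMSO, 0.20 for lamotrigine against DMSO and 0.15 for valproate against lamotrigine. The medians of the germline and meiosis probes were then 0.30, 0.15 and 0.19, and 1 probe, Ddx4, came on past 2-fold. With no detection filter, which adds values set by the scanner software, the medians were -0.45, -0.15 and -0.27 in that order, with 7 higher and 8 lower, 6 higher and 4 lower, and 2 higher and 10 lower. With the less strict detection flag, 48, 49 and 57 probes were detected with valproate, DMSO and lamotrigine and 1 came on with valproate alone. In that setting 4 probes were higher and 5 lower, 2 higher and 2 lower, and 2 higher and 4 lower, and the valproate against lamotrigine median was -0.064. Detection above the 99th percentile of the negative controls, added after seeing the data, gave 48, 49 and 51 probes, 1 on with valproate alone, 4 higher and 5 lower, 2 higher and 1 lower, 2 higher and 4 lower, and a median of -0.060. No share over all probes is given for the counts in these settings. They show how the counts depend on the setting and are not read as a result about the genes.

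Without the broadly expressed genes, 8, 6 and 8 probes were detected and the valproate against lamotrigine median was -0.20. With lamotrigine as the control of valproate, the median was 0.038 and 1 probe was lower. With normexp correction, 0 probes were 2-fold higher against DMSO, and 0 higher and 0 lower against lamotrigine. Its offset of 50 by construction shrinks differences between dim signals, as those of Tex15 and Spata17 are. At 1.5-fold, 2 were lower against DMSO, 2 lower against lamotrigine and 1 came on past that fold. At 3-fold, 0 were higher against DMSO, and 0 higher and 0 lower against lamotrigine. Among probes detected on all arrays, 0 were lower against lamotrigine. With genes chosen by current symbol, 5 came on with valproate alone. The counts of this paragraph also have no share over all probes beside them and are not read as a result about the genes.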

Other observations

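Current RefSeq symbols add 32 probes for 28 symbols that the array names as clones or by older symbols, and drop Tex18. Most are dim testis genes, and 2 of them, a Spata31d1b probe and a Spata45 probe, were detected with valproate alone. Spata31d1b read 4.48 with valproate, 4.67 with DMSO and 3.34 with lamotrigine, and the Spata45 probe read 4.79, 5.02 and 5.12. Both valproate values were under the DMSO floor of 5.29, so no fold is given for either. The other Spata45 probe was detected on all arrays at 4.55, 6.44 and 5.06, lower with valproate by a log2 difference of -0.50. Spata25 was detected with lamotrigine alone, at 1.43, 3.55 and 9.15. Of the 8 probes detected on all arrays, Tex33 had the lowest value relative to DMSO, at 7.34, 14.2 and 12.4, a log2 difference of -0.95 with valproate. Spata33 read 41.5, 63.7 and 58.2, a difference of -0.62, and Tex30 read 96.4, 76.8 and 74.5, a difference of 0.33.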
